A study of Mus musculus with 4 samples.

Results

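The inhibin, activin and AMH system was followed through 10 genes: the hormone subunit genes Inha, Inhba and Inhbb, the hormone gene Amh and its receptor gene Amhr2, the follistatin genes Fst and Fstl1, and the receptor genes Acvr1, Acvr2a and Acvr2b. Every probe set that the platform annotation gives to 1 of these genes alone was taken, which made 15 of the 22626 probe sets analysed, and 10 of 12393 genes. The study set 2 kinds of adult male mice, described by the design text as recipient males, against each other. W/Wv males carry mutations in the receptor gene Kit, came from a cross of WB and B6, and were bought. XX/Sry males have an XX karyotype and an Sry transgene; the sources used here give neither their strain nor the promoter and line of the transgene. From each genotype there was 1 array of whole testis and 1 of seminiferous tubules, so the 4 groups held 1 array each. The tubules came from testes stripped of the tunica and kept for 40 min at 37 °C in 5 mg/ml collagenase, and a 70 µm strainer had let the interstitial cells through. The sources used here do not say how many animals gave each RNA, or whether both preparations came from the same animals. With 1 array a group there was no spread between replicates, and having only 4 arrays limits how precise any value is.

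Inhibins and activins are dimers built from shared subunits of the TGF-beta superfamily. An alpha subunit joined to a beta subunit makes inhibin, the Sertoli cell hormone that lowers FSH release from the pituitary, while beta subunits joined to each other make activin, which raises it. Activins bind type II receptors, which then switch on type I receptors and the Smad proteins, and follistatin holds activin away from them. AMH, another member of the superfamily, is made by Sertoli cells from the time of sex determination, removes the Müllerian ducts in the male fetus, and in normal mice falls as Sertoli cells mature at puberty.

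The deposited values are MAS5 signals, a linear brightness per probe set scaled for each array. A signal was called measured when it was above the brightest of 27 bacterial control probe sets on the same array, a bound of 76.3 on W/Wv whole testis, 63.9 on XX/Sry whole testis, 46.1 on W/Wv tubules and 61.0 on XX/Sry tubules. In the pathway and cell marker lists, a measured gene or marker is instead one with a probe set of its own, at any brightness. The median signal over all probe sets lay between 157 and 183, and between 69.8% and 75.4% of probe sets were above the bound on each array. The genotype labels could be checked on the arrays: Xist, transcribed from the inactive X, read 3099 and 1002 in XX/Sry whole testis and tubules against 131 and 76.7 in W/Wv, and the Y-linked gene Eif2s3y read 795 and 580 in W/Wv against 9.5 and 28.2, both below the bound, in XX/Sry. All 13 measured Sertoli cell markers were above the bound on all 4 arrays. Of 9 markers of meiotic cells and spermatids, 1 was above the bound everywhere; their summed signal was 4477 in W/Wv whole testis, against 195 to 484 on the other arrays. That array stood apart in these markers, and genotype ratios in tubules do not use it. The W/Wv tubule array stood apart in its 18 spike-in control probe sets. Their median log2 deviation from their own means over the 4 arrays was 0.46 there. It was -0.09 on W/Wv whole testis, -0.18 on XX/Sry whole testis and -0.17 on XX/Sry tubules. The part of this in ratios that use the W/Wv tubule array was not tested.

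Of the 15 probe sets of the inhibin, activin and AMH genes, 11 were above the bound on all 4 arrays, 3 on some and 1 on none. Over all genes 13675 probe sets, or 60.4%, were above it on all 4. Inha, Inhbb, Amhr2, Fstl1, Acvr1 and Acvr2a were measured throughout, Amh, Inhba and Acvr2b were above the bound on 2 arrays each, and Fst was below it everywhere. The plot of the signals by array shows all 15.

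**Figure D1:**
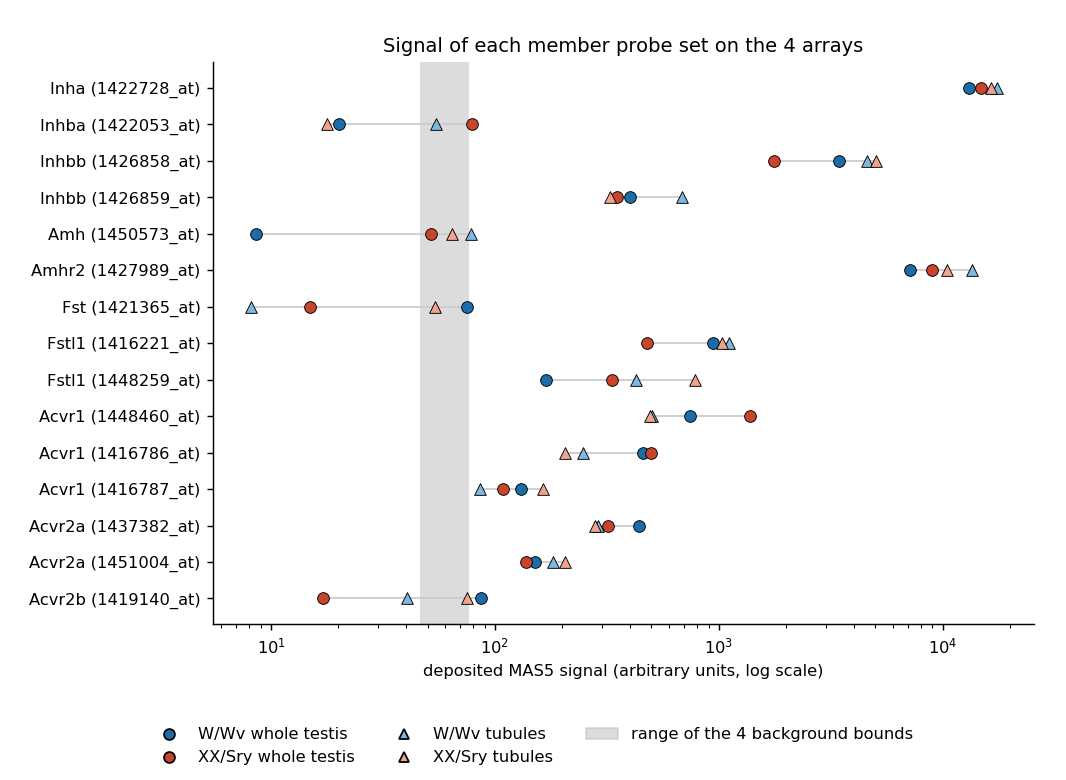
Deposited signal (log axis) of each of the 15 probe sets on the 4 arrays, 1 point an array. A grey band spans the range of the 4 background bounds. Inha and Amhr2 stay far above the bound on every array, with 13040 to 17427 for Inha, while Amh, Inhba, Fst and Acvr2b lie around or under it.

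The design text of the study called a gene different between the genotypes when the difference was at least 2-fold in whole testis and in tubules alike. No probe set of the 15 was higher in XX/Sry by that rule and none was lower; over all 22626 probe sets the shares were 0.698% higher and 0.495% lower. Within whole testis alone, 0 of 15 were at least 2-fold higher and 0 at least 2-fold lower, where 2.98% and 3.63% of all probe sets were. Within tubules alone 0 were at least 2-fold higher and 1, of Inhbb, was lower, where the whole table had 3.73% and 3.01%. The median log2 ratio of XX/Sry over W/Wv was -0.14 over the 15 in whole testis and -0.05 in tubules, against -0.11 and -0.02 over all probe sets. In bulk tissue fewer cells of a type and less RNA per cell cannot be told apart, and this holds for every value that follows.

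A linear model of the 4 arrays had a term for genotype and a term for preparation. Its error mixed the disagreement between the pairs of arrays with a variance pooled over probe sets of like brightness. The model was tested with limma and Benjamini-Hochberg adjustment over all probe sets. It called 34 probe sets for genotype, 0.15% of the table, and 0 of the 15; the unadjusted p was under 0.05 for 1 of the 15 and for 1977 of all. The smallest adjusted p among the 15 was 0.409, for the second probe set of Fstl1 (1448259_at), at a log2 difference of 0.92 ± 0.31 (SE).

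Between tubules and whole testis the same rule was applied to the pairs of the 2 genotypes. By it 1 of the 15 was higher in tubules, the Fstl1 probe set 1448259_at, and 0 were lower; the shares over the table were 0.575% higher and 2.1% lower. Within W/Wv alone that probe set was the only one of the 15 at least 2-fold higher and 0 were lower, where the table had 3.56% and 6.99%. Within XX/Sry alone 3 were higher, both of Fstl1 and 1 of Inhbb, and 2 were lower, both of Acvr1, where the table had 3.25% and 5.64%. The median log2 ratio of tubules over whole testis was 0.27 over the 15 in W/Wv and 0.31 in XX/Sry, against -0.15 and -0.03 over all probe sets. These medians include signals below the bound. Over the 11 member probe sets above the bound on all 4 arrays they were 0.27 and 0.22. Over all 13675 such probe sets they were -0.05 and 0.02.

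In the limma fit 275 probe sets, or 1.22%, passed for preparation after Benjamini-Hochberg adjustment, 54 higher and 221 lower in tubules, and 0 of the 15 did. At an unadjusted p under 0.05 there were 5 of the 15 and 3153 of all. The Fstl1 probe set 1448259_at came nearest, with a log2 difference of 1.29 ± 0.31 (SE) and a limma adjusted p of 0.0857, which ran from 0.0464 to 0.567 over the alternative settings.

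**Figure D2:**
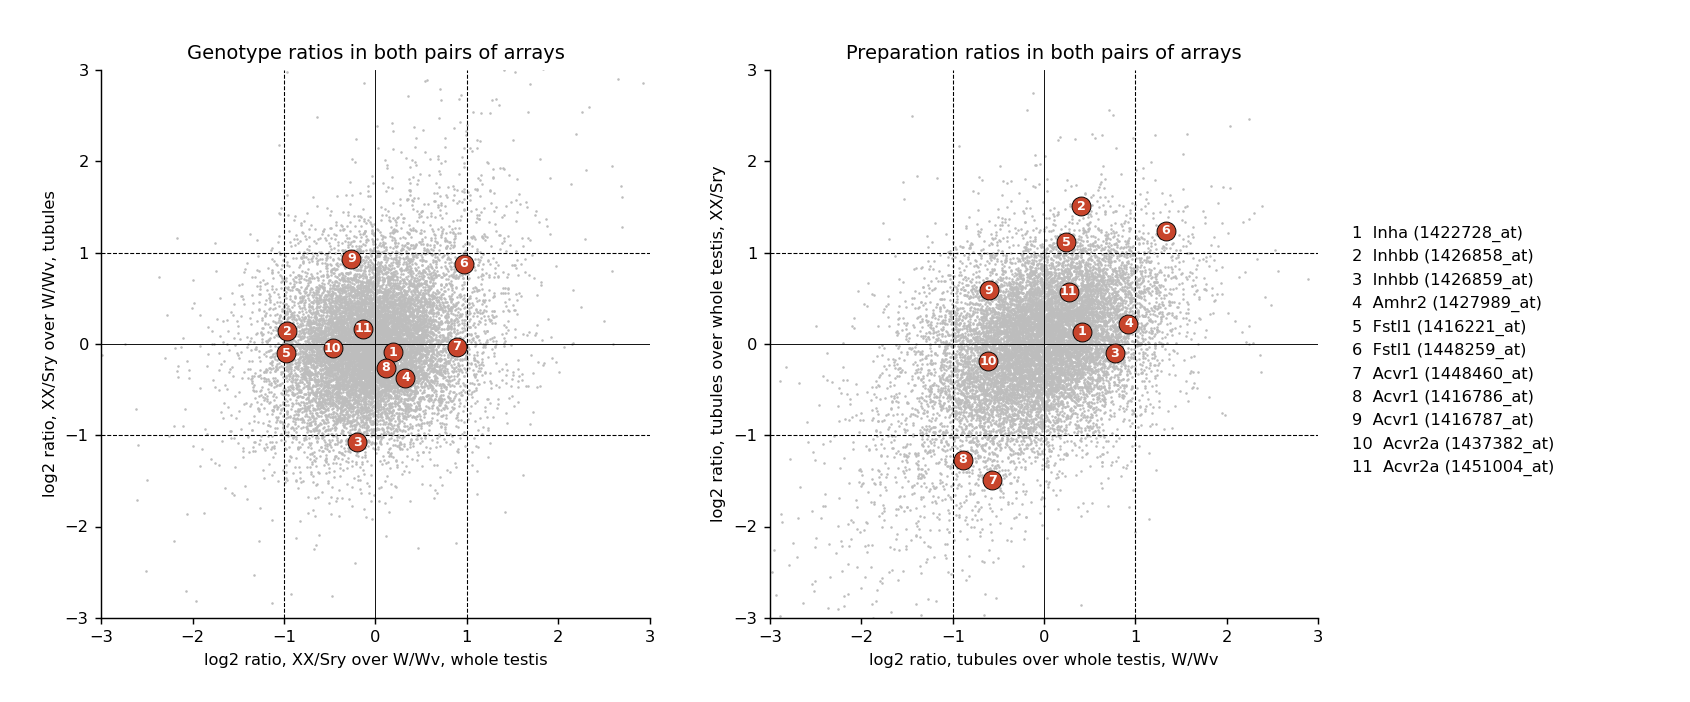
Log2 ratio in one pair of arrays against the other, for genotype (whole testis against tubules) and for preparation (W/Wv against XX/Sry). Numbered points are the 11 member probe sets measured on all 4 arrays, and dashed lines mark 2-fold. Grey points are those of all 13675 probe sets measured on all 4 arrays that fall within the axes. Of the numbered points only the Fstl1 probe set 1448259_at lies past 2-fold in both pairs, for preparation, at 1.33 and 1.24.

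Inha encodes the alpha subunit, the part that makes a dimer an inhibin. Its probe set 1422728_at read 13040 (W/Wv) and 14898 (XX/Sry) in whole testis and 17427 (W/Wv) and 16363 (XX/Sry) in tubules. The brightest array was 1.34-fold above the dimmest, the narrowest range of any member. XX/Sry was 1.14-fold higher in whole testis, and 1.07-fold lower when tubules were compared, so the small genotype difference changed direction between the preparations. Tubules were 1.34-fold higher than whole testis in W/Wv and 1.10-fold higher in XX/Sry, and the limma fit gave a preparation difference of 0.28 ± 0.32 (SE) with an adjusted p of 0.774.

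Inhbb encodes the beta B subunit, shared by inhibin B and activin B. Its brighter probe set, 1426858_at, read 3456 (W/Wv) and 1767 (XX/Sry) in whole testis and 4577 (W/Wv) and 5035 (XX/Sry) in tubules. The XX/Sry whole testis array thus stood below the other three, while both tubule arrays were the highest. The XX/Sry signal was 1.96-fold lower in whole testis but 1.10-fold higher in tubules, and tubules were 1.32-fold higher in W/Wv and 2.85-fold higher in XX/Sry. The other probe set, 1426859_at, read 402, 349, 686 and 326 in the same order, with W/Wv tubules standing above the rest. By it the XX/Sry signal was lower by 1.15-fold in whole testis and by 2.11-fold in tubules, so the 2 probe sets of Inhbb placed the larger genotype difference in different preparations. Limma gave the brighter probe set a preparation difference of 0.96 ± 0.30 (SE) with an adjusted p of 0.170, and the dimmer one 0.34 ± 0.33 (SE) with 0.729.

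Inhba encodes the beta A subunit of inhibin A and activin A. Its only probe set, 1422053_at, read 20.1 (W/Wv) and 79.0 (XX/Sry) in whole testis and 54.8 (W/Wv) and 17.7 (XX/Sry) in tubules. The XX/Sry whole testis and W/Wv tubule values were above their arrays' bounds and the other two below. A dim signal gives only a bound on a fold, so XX/Sry whole testis was at least 1.035-fold higher than W/Wv and at least 1.236-fold higher than XX/Sry tubules. In tubules the W/Wv signal was higher but under the bound of the XX/Sry array, so the genotype comparison there gave no fold. None of these bounds approached 2-fold.

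Amh, the hormone gene itself, read 8.6 (W/Wv) and 51.8 (XX/Sry) in whole testis and 78.2 (W/Wv) and 64.2 (XX/Sry) in tubules on its only probe set, 1450573_at. Both whole testis values were below their bounds. The W/Wv tubule value was above its bound of 46.1, and the XX/Sry tubule value was just above its bound of 61.0. The W/Wv tubule signal was 1.22-fold that of XX/Sry, and tubules were at least 1.02-fold above whole testis in W/Wv. In XX/Sry the tubule signal of 64.2 barely passed the whole testis bound of 63.9, so how far Amh differed between whole testis and tubules was not measurable at this brightness.

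Amhr2, the type II receptor that binds AMH and is made in Sertoli and Leydig cells, was bright throughout. Its probe set 1427989_at read 7147 (W/Wv) and 8975 (XX/Sry) in whole testis and 13539 (W/Wv) and 10469 (XX/Sry) in tubules. Both tubule arrays lay above both whole testis arrays, by 1.89-fold in W/Wv and 1.17-fold in XX/Sry. The genotypes changed places: XX/Sry was 1.26-fold higher in whole testis, and 1.29-fold lower when tubules were compared. Limma gave a preparation difference of 0.57 ± 0.31 (SE) with an adjusted p of 0.445, and a genotype difference of -0.02 ± 0.31 (SE) with 0.994.

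Fst encodes follistatin, the secreted protein that binds activin almost irreversibly. Its probe set 1421365_at read 74.9, 14.9, 8.1 and 54.0 on W/Wv whole testis, XX/Sry whole testis, W/Wv tubules and XX/Sry tubules. All 4 values were below the bound, so no fold is given.

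Fstl1, follistatin-like 1, is a secreted glycoprotein with a follistatin-type domain. Its brighter probe set, 1416221_at, read 941 (W/Wv) and 478 (XX/Sry) in whole testis and 1111 (W/Wv) and 1035 (XX/Sry) in tubules, so that here, as for Inhbb, the XX/Sry whole testis array stood alone below the others. The XX/Sry signal was lower by 1.97-fold in whole testis and by 1.07-fold in tubules, and tubules were 1.18-fold higher in W/Wv and 2.17-fold higher in XX/Sry. The dimmer probe set, 1448259_at, read 170, 332, 428 and 786 in the same order. On it XX/Sry was 1.96-fold higher in whole testis and 1.84-fold higher in tubules, and tubules were 2.52-fold higher in W/Wv and 2.37-fold higher in XX/Sry. In whole testis the log2 genotype ratios of the 2 probe sets were -0.98 and 0.97, opposite and almost equal in size, although the annotation gives both the same transcript accession. In tubules over whole testis they pointed the same way, and limma gave the brighter one a preparation difference of 0.68 ± 0.29 (SE) with an adjusted p of 0.323.

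Acvr1, also called ALK2, is a type I receptor that passes on signals of bone morphogenetic proteins and AMH as well as binding activin. Its brightest probe set, 1448460_at, read 743 (W/Wv) and 1379 (XX/Sry) in whole testis and 501 (W/Wv) and 491 (XX/Sry) in tubules. Its next probe set, 1416786_at, read 460, 496, 248 and 206 in the same order. On both, each tubule array lay below each whole testis array. Tubules were 1.48-fold lower in W/Wv and 2.81-fold lower in XX/Sry by the first, and 1.86-fold and 2.41-fold lower by the second. In the limma fit these were preparation differences of -1.03 ± 0.30 (SE) with an adjusted p of 0.144 and -1.08 ± 0.33 (SE) with 0.169. The dimmest, 1416787_at, read 130, 109, 85.7 and 164, and had XX/Sry tubules highest: tubules were 1.52-fold lower in W/Wv and 1.51-fold higher in XX/Sry. Between genotypes the brightest probe set had XX/Sry higher by 1.86-fold in whole testis and lower by 1.02-fold in tubules. The next was 1.08-fold higher and 1.20-fold lower, and the dimmest 1.20-fold lower and 1.91-fold higher, so the direction changed with the preparation on each.

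Markers of Leydig cells and macrophages moved with the preparation in the same direction as the brighter Acvr1 probe sets. Of 6 measured Leydig cell markers 5 were at least 2-fold lower in tubules in both genotypes, or 3 after median centring. Their summed signal was 36887 and 59936 in W/Wv and XX/Sry whole testis against 9204 and 23012 in the tubules. Of 8 macrophage markers 7 were lower, with sums of 12211 and 16195 against 4782 and 3572. The sum over 13 Sertoli cell markers was 89593 and 101616 in whole testis against 125240 and 107906 in tubules, with 0 called either way. Markers of peritubular myoid cells and smooth muscle summed to 6420 and 9426 in whole testis and 12498 and 13268 in tubules, and 0 of 6 were called. Markers of endothelial cells summed to 581 and 799 against 1004 and 1073, with 1 of 6 higher in tubules. The part of these cells in the values of Acvr1, Inhbb, Fstl1 and Amhr2 was not tested. The collagenase step also separates the preparations, so handling and cell content cannot be told apart in this comparison.

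Some marker lists also differed between the genotypes. All 6 Leydig cell markers had a higher signal in XX/Sry than in W/Wv within each preparation, by a median log2 of 0.80 (whole testis) and of 1.46 (tubules). By the 2-fold rule 2 of them were called higher, or 1 after quantile normalisation. Of 8 macrophage markers 7 had a higher signal in XX/Sry in whole testis and 1 in tubules. Their median log2 ratios were 0.45 and -0.69, and 0 were called. Of 6 endothelial cell markers 1, Emcn, was called higher in XX/Sry, and of 7 spermatogonial markers 1, Sall4, was called lower. The sum over 7 spermatogonial markers was 3466 in W/Wv whole testis against 1354 to 1747 on the other arrays, so the W/Wv whole testis array stood apart in both germ cell lists. Of 3 measured granulosa cell markers, Fst among them, 2 were below the bound on all 4 arrays, and the summed signal of the 3 ran from 108 to 184. Kit itself, the gene mutated in W/Wv, read 256 in W/Wv and 893 in XX/Sry in whole testis, and 139 and 569 in tubules. The part of these differences in the genotype ratios above was not tested.

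Acvr2a, a type II receptor for activin, read 442 (W/Wv) and 319 (XX/Sry) in whole testis and 289 (W/Wv) and 280.0 (XX/Sry) in tubules on its brighter probe set, 1437382_at. The W/Wv whole testis array was the highest by 1.38-fold over XX/Sry whole testis and 1.53-fold over W/Wv tubules, while in tubules XX/Sry was 1.03-fold lower than W/Wv. The dimmer probe set, 1451004_at, read 151, 138, 182 and 205, with both tubule arrays above both whole testis arrays, by 1.21-fold in W/Wv and 1.49-fold in XX/Sry. Between genotypes it had XX/Sry lower by 1.10-fold in whole testis and higher by 1.12-fold in tubules. The preparation difference thus had opposite signs on the 2 probe sets, -0.40 ± 0.34 (SE) with an adjusted p of 0.671 and 0.42 ± 0.45 (SE) with 0.752 in the limma fit.

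Acvr2b, the other activin type II receptor, read 87.1, 17.1, 40.4 and 75.3 on W/Wv whole testis, XX/Sry whole testis, W/Wv tubules and XX/Sry tubules (1419140_at). The first and last of these were above the bound. Its folds were bounds between 1.14 and 1.23, and the 2 pairs of each comparison pointed opposite ways.

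The 4 genes with several measured probe sets gave 16 spans, a span being the highest minus the lowest log2 ratio among a gene's probe sets in 1 pair of arrays, and 7 of the 16 were at least 1. In the order genotype in whole testis, genotype in tubules, preparation in W/Wv and preparation in XX/Sry, the spans of Fstl1 were 1.94, 0.98, 1.09 and 0.13. Those of Inhbb were 0.77, 1.21, 0.37 and 1.61, and those of Acvr1 were 1.16, 1.20, 0.33 and 2.08. Acvr2a stayed under 1 throughout, at 0.33, 0.21, 0.88 and 0.76. Over all 2981 genes with several measured probe sets the median span was 0.53 in the whole testis genotype pair, 0.47 in the tubule one, 0.56 in the W/Wv preparation pair and 0.54 in the XX/Sry one. Spans of at least 1 were found for 18.8%, 15.0%, 21.6% and 18.0% of these genes.

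**Figure D3:**
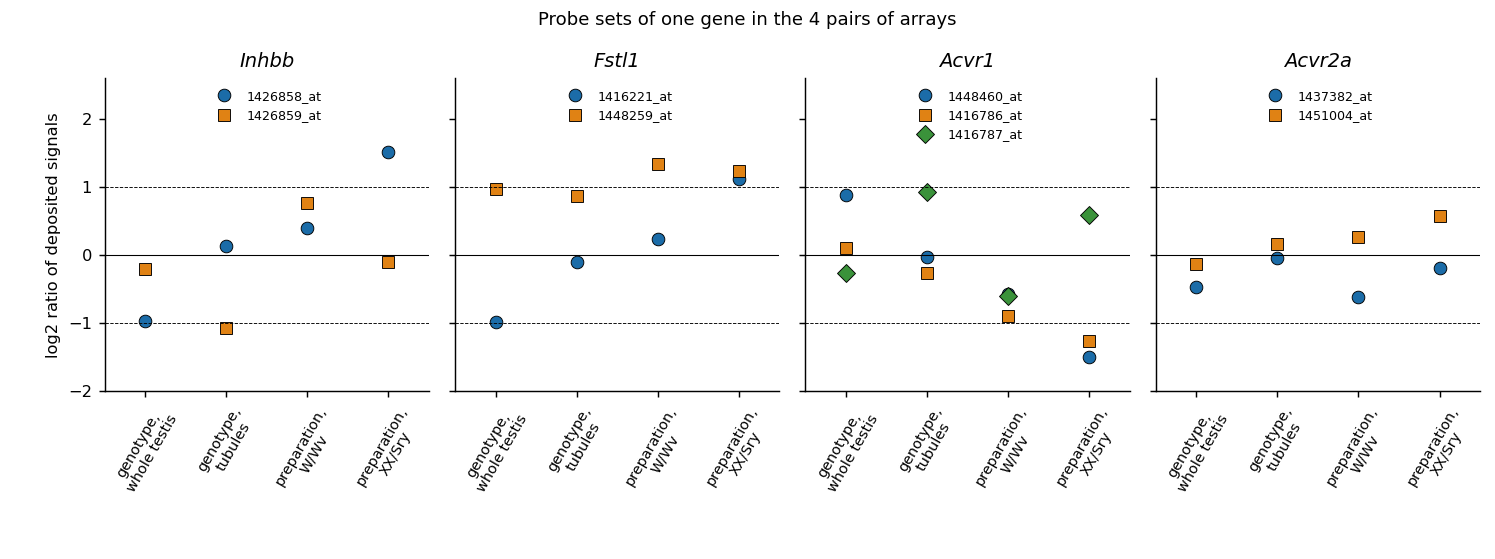
Log2 ratio of each measured probe set of Inhbb, Fstl1, Acvr1 and Acvr2a in the 4 pairs of arrays, with 1 point a probe set and a line at 0. The Fstl1 points lie at -0.98 and 0.97 for genotype in whole testis but at 1.11 and 1.24 for preparation in XX/Sry.

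Inhbb, Fstl1 and Acvr1 held every member probe set that reached 2-fold in any pair, and for these the 250 bases upstream of the annotated start were read from the RefSeq promoter table of build GRCm38.p6. The windows are chr1:119422249-119422498 on the minus strand for Inhbb, chr16:37776805-37777054 on the plus strand for Fstl1 and chr2:58566829-58567078 on the minus strand for Acvr1, each outside the annotated gene and ending at its start. They are shown 5′ to 3′, and capitals would mark the motifs named after them, of which they hold none.
Inhbb: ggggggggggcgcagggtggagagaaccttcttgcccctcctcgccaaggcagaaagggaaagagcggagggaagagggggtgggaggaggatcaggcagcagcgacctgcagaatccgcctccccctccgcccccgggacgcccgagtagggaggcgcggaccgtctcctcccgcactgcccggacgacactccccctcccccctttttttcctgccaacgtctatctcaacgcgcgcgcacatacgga
Fstl1: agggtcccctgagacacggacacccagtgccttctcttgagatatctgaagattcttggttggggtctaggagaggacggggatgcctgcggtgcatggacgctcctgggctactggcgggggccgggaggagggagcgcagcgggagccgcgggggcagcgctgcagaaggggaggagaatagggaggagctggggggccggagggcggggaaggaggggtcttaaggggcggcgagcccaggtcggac
Acvr1: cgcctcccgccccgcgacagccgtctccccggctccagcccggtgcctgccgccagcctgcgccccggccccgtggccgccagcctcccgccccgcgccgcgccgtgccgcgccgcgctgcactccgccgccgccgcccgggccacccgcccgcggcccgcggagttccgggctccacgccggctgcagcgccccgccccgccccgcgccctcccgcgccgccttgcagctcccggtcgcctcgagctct
Their GC content was 68.0%, 68.0% and 85.6%, against a median of 52.4% over all 32851 windows of this length in the table.

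Each window was searched on both strands for 5 short motifs: AGGTCA, a core element of nuclear receptors such as Nr5a1, TGACG from the cAMP response element, TGATA from the GATA factor site, ACAAT from the Sox site, and CAGAC, the Smad box. Of the 10 genes 8 were in the table; Amh and Fst are named only. AGGTCA was in 2 of the 8 windows (Inha and Amhr2) and in 14.0% of all, and TGACG was in 0 and in 17.8%. TGATA was in 1 (Amhr2) and in 22.0% of all, ACAAT in 2 (Inhba and Acvr2a) and 27.7%, and CAGAC in 3 (Inha, Acvr2a and Acvr2b) and 42.2%. For Inha, Inhba, Amhr2 and Acvr2b the annotated gene begins further upstream, so the window lies inside it. A match to so short a motif is a description of the letters, and the search says nothing of binding in these samples.

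The wider pathway was read from a list of 91 other genes of TGF-beta superfamily signalling and of Amh and inhibin regulation, 74 of which had a probe set of their own. Of these, 46 were above the bound on all 4 arrays and 8 on none. By the rule for genotype, 1 was higher in XX/Sry, 2 were lower and 71 were neither, or 1.35% and 2.70% beside 0.734% and 0.436% of all 12393 genes. For preparation, 1 was higher and 1 lower in tubules in both genotypes and 72 were neither, or 1.35% each beside 0.452% and 2.23%. The median log2 ratios over the 74 were -0.05 and -0.03 for genotype in whole testis and tubules and 0.11 and 0.00 for preparation in W/Wv and XX/Sry, against -0.10, 0.00, -0.15 and -0.02 over all genes.

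Among ligands, Lefty1, an inhibitor of Nodal signalling, was the gene that was higher in XX/Sry; of 20 measured ligands 3 were above the bound on all 4 arrays and 7 on none. The W/Wv signals of Lefty1, 73.5 in whole testis and 17.0 in tubules, were below the bound, while XX/Sry read 342 and 147, at least 4.477-fold and at least 2.406-fold higher; it is dimmer than the rule for named genes allows and was picked after its values were seen. None of the 11 measured receptors and co-receptors was called in either comparison. Acvr1b, the type I receptor ALK4 that activin uses, read 276 (W/Wv) and 223 (XX/Sry) in whole testis and 296 (W/Wv) and 628 (XX/Sry) in tubules. Its XX/Sry tubule array stood alone, 2.12-fold above W/Wv tubules and 2.81-fold above XX/Sry whole testis. Tgfbr3, betaglycan, which holds inhibin on the activin receptor, read 238, 244, 306 and 261, and no pair of arrays reached 2-fold.

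Of the 11 measured antagonists and binding proteins 0 were called for genotype and 1, Dcn, was lower in tubules. Dcn encodes decorin, a matrix proteoglycan that binds TGF-beta, and read 9636 (W/Wv) and 9835 (XX/Sry) in whole testis and 3124 (W/Wv) and 2233 (XX/Sry) in tubules, a 3.08-fold and a 4.40-fold difference. Its limma adjusted p for preparation was 0.00802. The other pathway genes called by the 2-fold rule did not pass 0.05 in the limma fit. Their adjusted p was 0.167 for Lefty1, 0.0711 for Id4 and 0.452 for Creb1 (genotype), and 0.0685 for Nr0b1 (preparation). Fstl3, a relative of follistatin that also binds activin, read 223, 230, 368 and 657; tubules were higher by 1.65-fold in W/Wv and 2.85-fold in XX/Sry, which did not meet the rule in both genotypes.

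None of the 12 measured Smads and Smad regulators was called by its leading probe set. By the mean of all probe sets of a gene, Smad3 was called higher in tubules. Smad2, an activin-regulated Smad, read 764, 674, 714 and 719 across the arrays, and its partner Smad3 read 189, 208, 319 and 317, higher on both tubule arrays. None of the 4 measured convertases, the proteases that cut the precursors, was called either. Among 6 measured direct targets Id4, an inhibitor of basic helix-loop-helix factors, was lower in XX/Sry: whole testis read 725 in W/Wv and 269 in XX/Sry, a 2.69-fold difference, and tubules read 1401 and 478, a 2.93-fold one.

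Among the 10 measured regulators of Amh and inhibin transcription, all above the bound on all 4 arrays, Creb1 was lower in XX/Sry and Nr0b1 was higher in tubules. Creb1, a factor that answers cAMP downstream of FSH, read 239 in W/Wv and 94.7 in XX/Sry in whole testis, a 2.52-fold difference, and 264 and 121 in tubules, a 2.18-fold one; by the mean of all its probe sets it was not called. Nr0b1, or Dax1, a repressor of Nr5a1, read 1477, 2365, 3159 and 4772 in W/Wv whole testis, XX/Sry whole testis, W/Wv tubules and XX/Sry tubules; tubules were 2.14-fold and 2.02-fold higher, a call lost under quantile normalisation. Sox9, the factor that starts Amh transcription, read 563, 538, 1182 and 801. Fshr, the FSH receptor of Sertoli cells, read 528, 606, 938 and 655. Both had both tubule arrays above both whole testis arrays without reaching 2-fold in both genotypes. Nr5a1 read 1150, 1306, 1480 and 1128 and Gata4 read 794, 878, 1268 and 792, each highest in W/Wv tubules.

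**Figure D4:**
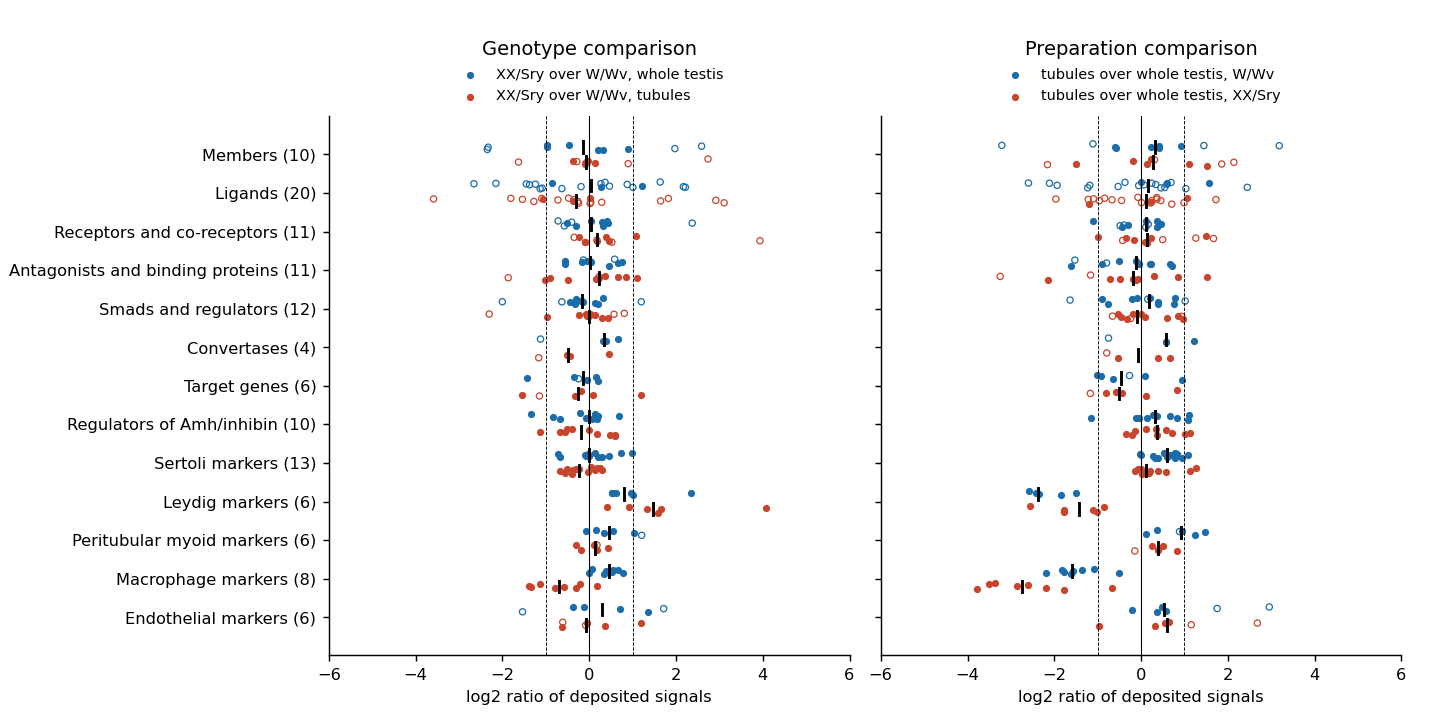
Log2 ratio in each pair of arrays for the 10 members, the pathway roles and 5 lists of cell markers, with 1 point a measured gene (filled where above the bound on all 4 arrays), a bar at the median, the number of genes in brackets and dashed lines at 2-fold. Pathway role medians lie between -0.52 and 0.58, while for preparation the Leydig medians are -2.37 and -1.44 and the macrophage medians -1.59 and -2.74.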

How the data were processed

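The deposited values are array intensity: MAS5 signals on a linear scale, 1 per probe set and array, per the submitters' processing notes, and were used as deposited. The number of value columns not used was 0. The table held 22690 probe sets, 64 of them controls. The platform annotation gave 1 gene symbol to 20380 of the remaining 22626, several to 691 and none to 1555; RefSeq's gene table listed 20351 of the first and altered 0 symbols.

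The background bound of an array is the highest signal of its 27 bacterial controls. A fold is the brighter over the dimmer signal; a dim signal below its bound was replaced by the higher bound ("at least"), and none is given where the brighter was below its own. A call needs at least 2-fold in both pairs of arrays, as the design text does for genotype. A gene is represented by its probe set of highest mean log2 signal in lists, and members by all their probe sets. The named pathway genes were those called in a list plus fixed ones for each role. Genes of like pattern were to be named only for members whose leading probe set passed in both pairs, and none did.

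The additive fit (genotype and preparation, 1 residual degree of freedom) used limma 3.58.1 in R 4.3.3 on log2 signals, with a trend, 9.98 prior degrees of freedom and two-sided p-values adjusted by Benjamini-Hochberg over 22626 probe sets. It treats the arrays as independent. Each error mixes the probe set's own disagreement between pairs, which may be technical, with a variance pooled over probe sets of like brightness. With 1 residual and 9.98 prior degrees of freedom, the pooled part carries more weight. An SE is therefore not the disagreement of that probe set's pairs alone. The calculations were tested on simulated data with every probe set well above the bound and the planted changes well past 2-fold. That simulation does not cover dim signals or calls near 2-fold. The bound rule was run on a few hand-made cases. Alternatives were median centring, quantile normalisation, an offset, no bound, other fold thresholds, gene means, no trend and a filter on dim probe sets; the first 2, the offset and gene means were also run on the pathway and cell marker lists. The members and lists were chosen with earlier results of these data known.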

Additional observations from a re-analysis of the deposited data

Results flagged for a closer look

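The genotype difference changed direction between the preparations by at least 2-fold for 2 of the 11 member probe sets measured on all 4 arrays, and neither difference was tested, since each group had 1 array. For Inhbb (1426858_at) XX/Sry was lower in whole testis and slightly higher in tubules, and the genotype ratio in tubules exceeded that in whole testis by 1.11 on the log2 scale. For Acvr1 (1416787_at) it was lower in whole testis and higher in tubules, a gap of 1.20. The second probe set of Inhbb was lower in XX/Sry in both preparations. The other probe sets of Acvr1 changed direction the opposite way, with XX/Sry higher in whole testis and lower in tubules. Their gaps were under 2-fold, at -0.92 (1448460_at) and -0.37 (1416786_at). Over all 13675 probe sets measured on the 4 arrays, 1703 (12.5%) changed direction by at least 2-fold.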

How the results depend on the processing

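No paired analysis was possible because replicate numbers pair nothing with 1 array a group; the fit already compares arrays within each preparation and each genotype. For the same reason no array could be left out of a group. Among the 15 member probe sets a threshold of 1.5-fold added 1 higher in XX/Sry (Fstl1 1448259_at) and 1 lower in tubules (Acvr1 1416786_at), 3-fold left 0 higher in tubules, and the fit over probe sets above the bound on at least 2 arrays passed 1 for preparation (Fstl1 1448259_at, limma adjusted p 0.0464). Over all probe sets, the counts without a bound, at 1.5-fold and at 3-fold were 497, 602 and 31 higher in XX/Sry (158 as reported), 859, 598 and 15 lower in XX/Sry (112), 409, 781 and 9 higher in tubules (130), and 1326, 1331 and 127 lower in tubules (475). Median centring gave 266 higher in tubules, which moved the share of higher among preparation calls from 21.5% to 44.3%; leaving out the bound moved that among genotype calls from 58.5% to 36.7%. Median centring also shifted the median over the whole array from -0.11 to -0.02 on the log2 scale (genotype, whole testis) and from -0.15 to 0.07 (preparation, W/Wv). The limma fit without a trend called 0 for genotype and 0 for preparation; with the filter on dim probe sets it called 84 and 454, and after quantile normalisation 76 for genotype. Pathway genes lower in XX/Sry were 1 by gene means, without Creb1. Those higher in tubules were 0 after quantile normalisation and 2 by gene means (Nr0b1 and Smad3). Leydig cell markers lower in tubules went from 5 to 3 under median centring and those higher in XX/Sry from 2 to 1 under quantile normalisation. Of 40 log2 ratios of members' leading probe sets, median centring and the offset changed the sign of 0, quantile normalisation of 1 (Inha, genotype in tubules, -0.09 to 0.04) and gene means of 5, among them Inhbb in that pair (0.14 to -0.47). The causes of these changes were not tested. The signal over background limits Amh, Inhba, Fst and Acvr2b, which have bounds or no fold.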
